A study of Mus musculus with 6 samples.

Results

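The tight junction genes described here are the claudins *Cldn1*, *Cldn4*, *Cldn5*, *Cldn7*, *Cldn8*, *Cldn12* and *Cldn23*, together with *Ocln* (occludin) and *Tjp1* (ZO-1). They were chosen by name, as the 9 genes whose Ensembl identifiers carry these symbols in GENCODE release M21, and all 9 have a row among the 26579 genes of the count table. Skin RNA was sequenced from the dorsal neck of 3 wild type (WT) mice and 3 transgenic YAP2-5SA-∆C (TG) littermates, all female and 33 days old. The transgene produces a mildly active mutant of YAP, the transcriptional coactivator restrained by the Hippo pathway, in the Keratin5/14-positive basal keratinocytes of the epidermis, and the TG mice were taken when the skin phenotype was first visible. Each biopsy held whole skin, so that epidermis, hair follicles, glands, vessels, dermis and muscle all gave RNA.

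Tight junctions seal the space between neighbouring epithelial or endothelial cells. Claudins are small proteins that cross the membrane 4 times and polymerise into strands, and the set of claudins that a cell makes determines which ions and solutes can pass. Occludin lies in the same strands, and ZO-1 is the scaffold beneath the membrane that binds claudins and occludin and links them to actin. In the epidermis these junctions are functional in the granular layer, where they add a second barrier beneath the cornified layer.

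The libraries held 11225705 to 19505036 counted reads. *Yap1*, the mouse gene that corresponds to the transgene, had 131 ± 9.47 CPM in WT and 136 ± 7.32 CPM in TG skin (SD, n = 3 each), and it is not known whether transgene reads were counted there. CPM stands for TMM-scaled counts relative to library size. With edgeR's quasi-likelihood test, which gave every FDR below unless another test is named, 288 of 15102 genes passed the FDR threshold of 0.05. TG replicate 2 stood apart from the other TG libraries, with hair shaft and inner root sheath markers whose log2 ratio to the WT mean had a median of -3.23, against -1.01 and -0.82 in TG replicates 1 and 3. The calls of the tight junction genes are therefore given with and without it.

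None of the tight junction genes passed the FDR threshold, although most had lower values in TG skin. *Cldn7* was too scarce to test, and of the other 8 genes, 0 passed the FDR threshold (edgeR quasi-likelihood), 5 had an unadjusted p-value under 0.05 and 5 had genotypes that did not overlap in CPM. The first count stands against a background of 1.91% of all genes tested (0.464% lower and 1.44% higher in TG). Their log2 fold changes (TG over WT) were below 0 for 6 genes and above 0 for *Cldn5* and *Cldn23*, against 7908 below and 7194 above among all 15102 tested. Their median was -0.30, against -0.01 over all genes tested. The 5 genes with an unadjusted p-value under 0.05 (*Cldn1*, *Cldn4*, *Cldn8*, *Cldn12* and *Ocln*) were all lower in TG, where the background is 26.3% of genes in either direction and 13.0% lower. The 5 genes without overlap (*Cldn1*, *Cldn4*, *Cldn8*, *Cldn12* and *Tjp1*) were also all lower in TG, against a background of 33.8% in either direction, of which 18.2% were lower and 15.5% higher. These are whole-tissue values, in which fewer cells of a type and less RNA per cell cannot be told apart. Without TG replicate 2, 3 of the 8 genes (*Cldn4*, *Cldn8* and *Cldn12*) passed in the same test, all lower in TG, with a background of 5.46% of genes called (2.74% lower). The unadjusted p-value was then under 0.05 for 4 of the 8, *Ocln* no longer being among them, against 20.8% of all genes. The same 3 genes passed in the likelihood-ratio test on all libraries, which called 10.4% of genes (4.87% lower).

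**Figure D1:**
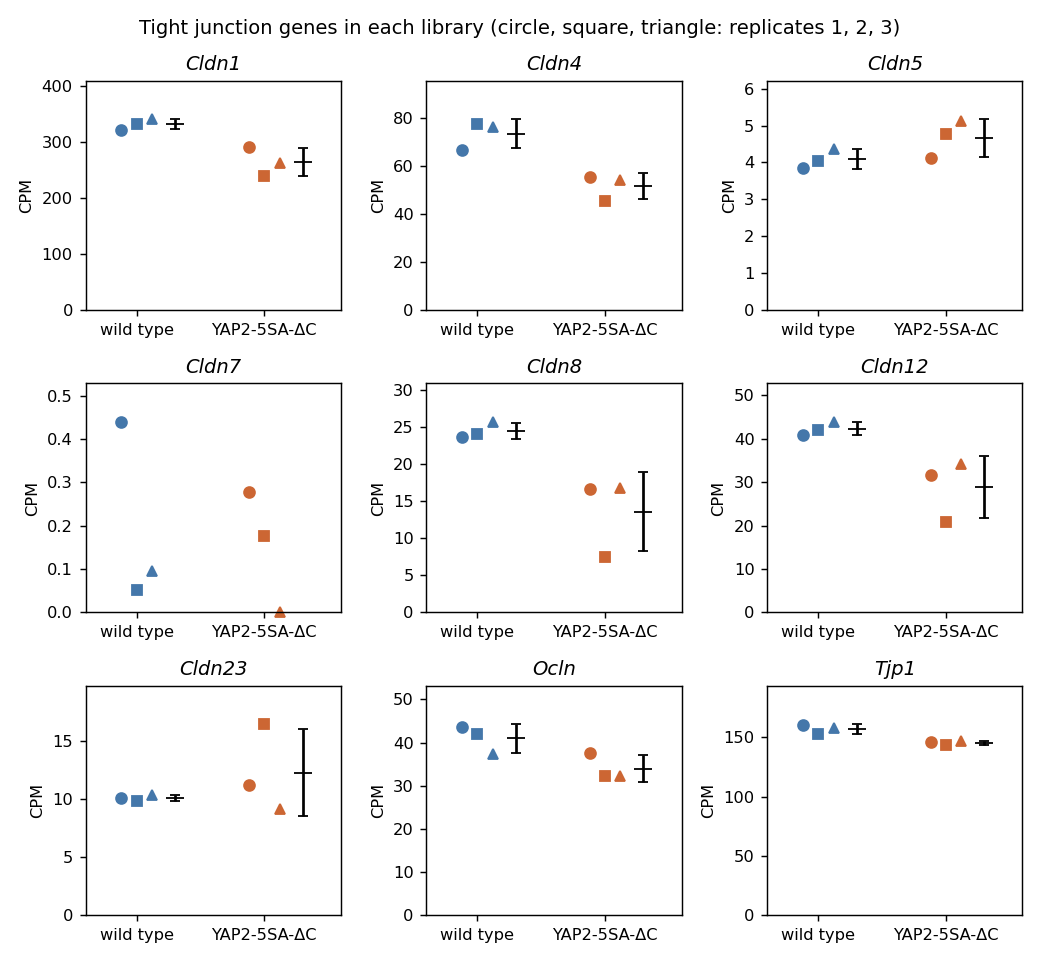
CPM of each tight junction gene (vertical axes, from 0) in the 3 WT (blue) and 3 TG (orange) libraries, with circles, squares and triangles for replicates 1, 2 and 3 and black bars for the mean ± SD, omitted for *Cldn7*. The genotypes do not overlap for *Cldn1*, *Cldn4*, *Cldn8*, *Cldn12* and *Tjp1*, and TG replicate 2 has the lowest value of each of these genes.

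*Cldn1* (ENSMUSG00000022512, chromosome 16 of GRCm38 from 26356642 to 26371841) encodes the claudin without which mouse skin loses its water barrier. It had 322, 333 and 341 CPM in WT replicates 1, 2 and 3, and 291, 240.2 and 263 CPM in TG replicates 1, 2 and 3. Every TG library was thus below every WT library (exact permutation test, two-sided, p = 0.1, below which 3 mice against 3 cannot go). The fitted log2 fold change was -0.33 ± 0.08 (standard error, as for every log2 fold change), its 95% interval, not adjusted for the number of genes, was -0.52 to -0.14, and the quasi-likelihood FDR was 0.0684. Without TG replicate 2, the lowest library, it was -0.24 (quasi-likelihood FDR 0.0975).

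*Cldn4* (ENSMUSG00000047501, chromosome 5 from 134945119 to 134946934) encodes a barrier-forming claudin of the upper epidermal layers and of many simple epithelia. Its CPM were 66.5, 77.5 and 76.4 in the WT libraries and 55.3, 45.4 and 54.2 in the TG libraries. The TG values lay at 0.703 times the WT level in the fit, with no overlap between the genotypes (two-sided exact permutation test, p = 0.1). Of the 8 genes, *Cldn4* came closest to the threshold, its log2 fold change being -0.51 ± 0.10 (95% interval -0.74 to -0.28) and its quasi-likelihood FDR 0.0524. Without TG replicate 2 the value was -0.41 (quasi-likelihood FDR 0.0450), so that it passed the threshold in those 5 libraries.

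The 250 bases before the start of *Cldn1* and *Cldn4* are shown because these are the most abundant of the 7 claudins and both were lower in every TG library. That of *Cldn7* is shown beside them as the promoter of the claudin with almost no reads. The sequences are from RefSeq on GRCm38.p6, read 5′ to 3′ on the strand of the gene, and 7 of the 9 genes have an entry there. Capitals mark matches to the TEAD core GGAATG, through which YAP is brought to DNA, or to the AP-1 site TGANTCA, each searched on both strands together with the Grainyhead motif AACNGGTT.
Cldn1, chr16:26371840-26372089, minus strand: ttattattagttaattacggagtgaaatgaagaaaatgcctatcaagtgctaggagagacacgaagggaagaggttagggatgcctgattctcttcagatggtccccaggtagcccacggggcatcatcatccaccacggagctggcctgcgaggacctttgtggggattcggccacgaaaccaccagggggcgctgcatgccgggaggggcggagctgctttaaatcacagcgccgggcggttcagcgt
Cldn4, chr5:134946935-134947184, minus strand: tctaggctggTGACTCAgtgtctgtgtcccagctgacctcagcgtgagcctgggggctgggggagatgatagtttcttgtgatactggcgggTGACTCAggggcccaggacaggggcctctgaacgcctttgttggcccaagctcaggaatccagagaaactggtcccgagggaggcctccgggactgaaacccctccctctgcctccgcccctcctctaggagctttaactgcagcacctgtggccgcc
Cldn7, chr11:69964529-69964778, plus strand: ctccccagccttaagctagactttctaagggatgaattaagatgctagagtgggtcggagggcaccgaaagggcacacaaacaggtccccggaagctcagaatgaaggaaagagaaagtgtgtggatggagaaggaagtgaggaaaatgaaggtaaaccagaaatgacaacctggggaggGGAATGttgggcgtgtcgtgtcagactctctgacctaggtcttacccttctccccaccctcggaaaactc
The *Cldn4* window held 2 matches to the AP-1 motif, which begin 240 and 158 bases before the start and do not overlap other matches. Over all 32851 promoter windows of this length, 6.75% held at least 1 AP-1 match and 0.338% held 2 or more. *Cldn7* has 2 windows in RefSeq, of which the printed one held a TEAD match that begins 70 bases before its start and the other held none. At least 1 TEAD match was found in 12.6% of all windows, and in 14.4% of genes over all their windows. None of the 3 motifs was found in the *Cldn1* window. The Grainyhead motif occurred in 1.79% of all windows and, among the 11 windows of the 7 genes, in that of *Cldn5*. A match of letters is a description of the sequence and does not show that a factor binds there.

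*Cldn8* and *Cldn12* were lower in all TG libraries, and by most in TG replicate 2. *Cldn8* (ENSMUSG00000050520, chromosome 16 from 88560828 to 88563183) encodes a claudin known from tight, ion-selective epithelia such as the collecting duct of the kidney. It had 23.7, 24.1 and 25.8 CPM in WT replicates 1 to 3 and 16.6, 7.47 and 16.8 CPM in TG replicates 1 to 3. The WT libraries were close together, and TG replicate 2 was at 0.447 times the mean of the other TG libraries. At -0.85 ± 0.28, its log2 fold change was the lowest of the 8 genes (95% interval -1.52 to -0.18, quasi-likelihood FDR 0.123). Without TG replicate 2 the log2 fold change was smaller, at -0.54, and the FDR was 0.0215.

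*Cldn12* (ENSMUSG00000046798, chromosome 5 from 5489537 to 5514958) encodes a claudin that lacks the C-terminal motif by which most claudins bind ZO-1. Its values were 41.0, 42.0 and 44.0 CPM in WT skin and 31.6, 20.8 and 34.1 CPM in TG skin, again with TG replicate 2 lowest and no overlap between genotypes. The log2 fold change was -0.55 ± 0.17 (95% interval -0.96 to -0.14, quasi-likelihood FDR 0.106). It was -0.35 (quasi-likelihood FDR 0.0492) when TG replicate 2 was left out.

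The order of the TG libraries in *Cldn8* and *Cldn12* was also seen in the hair genes. Summed over 11 hair shaft and inner root sheath markers (*Krt85* was not analysed here), the level was 13187 to 16290 CPM in WT and 1468 to 8860 CPM in TG skin, lowest in TG replicate 2. All 11 markers were lower in every TG library than in any WT library, against 18.2% of all genes, 0 of them passed the FDR threshold, and none was at 0. When TG replicate 2 was left out, 10 of the 11 passed, all lower, against 2.74% of all genes called lower. In TG replicates 1, 2 and 3, *Cldn8* lay at -0.56, -1.72 and -0.55 log2 units from its WT mean, and *Cldn12* at -0.42, -1.03 and -0.31. The 6 melanocyte markers, which belong to pigment cells that sit largely in the follicle, were likewise lower in every TG library, with a summed level of 416 to 489 CPM in WT and 154 to 266 CPM in TG skin, and 2 of the 6 (*Tyrp1* and *Dct*) passed the threshold, and all 6 did without TG replicate 2. The shares over all genes are 18.2% lower without overlap, 0.464% called lower, and 2.74% called lower without TG replicate 2. The part of hair follicle content in the claudin values was not tested.

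**Figure D2:**
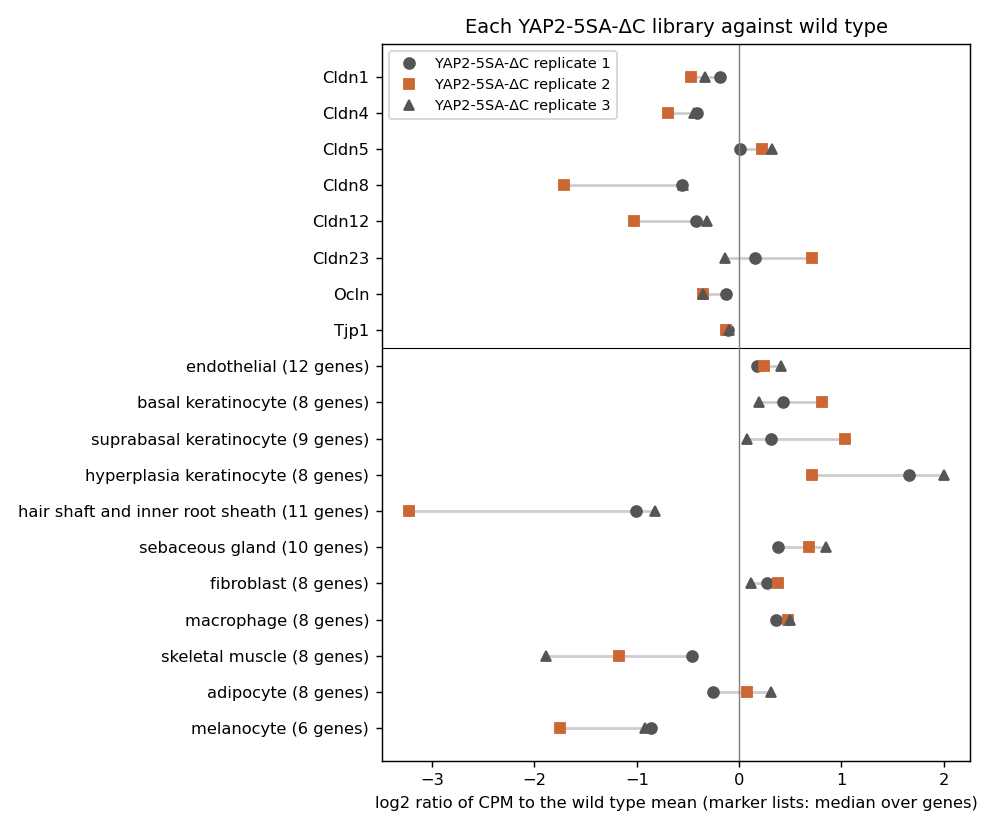
Log2 ratio of CPM to the WT mean (horizontal axis) in TG replicates 1 (circles), 2 (orange squares) and 3 (triangles), for the 8 tested tight junction genes above the line and, below it, for lists of cell type markers as the median over the genes of each list. *Cldn8* at -1.72 and *Cldn12* at -1.03 in TG replicate 2 are the lowest values among the 8 genes, and the hair shaft and inner root sheath list is at -3.23 in the same library.

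*Cldn23* had a higher mean in TG than in WT skin, in which TG replicate 2 was the highest library. This gene (ENSMUSG00000055976, chromosome 8 from 35824712 to 35826559) encodes one of the less studied claudins, which is present in differentiated epithelium. It had 10.1, 9.79 and 10.3 CPM in the WT libraries and 11.2, 16.4 and 9.11 CPM in the TG libraries, so TG replicate 2 was the highest of all and TG replicate 3 the lowest. The log2 fold change was 0.29 ± 0.21, and its 95% interval of -0.20 to 0.77 spanned 0 (quasi-likelihood FDR 0.413). It came to 0.03 without TG replicate 2 and to 0.46 without TG replicate 3 (quasi-likelihood FDR 0.922 and 0.175). In the same library, the 9 suprabasal keratinocyte markers analysed (*Flg* was not analysed here) were a median 1.03 log2 units above the WT mean, against 0.31 and 0.08 in TG replicates 1 and 3. Basal keratinocyte markers (0.43, 0.81 and 0.19 in TG replicates 1, 2 and 3) and fibroblast markers (0.27, 0.38 and 0.11) had the same order of libraries. The remaining marker lists did not. The summed level of the suprabasal markers was 7074 to 9134 CPM in WT and 10057 to 17854 CPM in TG skin. Of these 9 markers, 0 passed the threshold, against 1.91% of all genes. Without TG replicate 2, 1 of 9 (*Krt1*) passed, against 5.46% of all genes. The part of these cell types in the *Cldn23* values was not tested.

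*Cldn5* is the main claudin of blood vessel endothelium (ENSMUSG00000041378, chromosome 16 from 18776847 to 18778262). It had 3.85, 4.03 and 4.38 CPM in WT and 4.12, 4.77 and 5.12 CPM in TG skin, and the genotypes overlapped. The log2 fold change was 0.20 ± 0.14 (quasi-likelihood FDR 0.403), and the 95% interval of -0.13 to 0.52 leaves room for a change in either direction. With a library left out, it lay between 0.13 (without TG replicate 3) and 0.30 (without TG replicate 1). The 12 endothelial markers, which include the junction genes *Cdh5* and *Esam*, summed to 177 to 192 CPM in WT and 209 to 244 CPM in TG skin. Of these 12, 0 passed the threshold and 11 had a log2 fold change above 0, against 7194 of 15102 genes tested. Their median of 0.29 stood beside the 0.20 of *Cldn5*. Values above 0 were also held by 8 of 8 fibroblast and 8 of 8 macrophage markers (medians 0.27 and 0.47), and by 0 of 8 skeletal muscle markers.

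*Cldn7* (ENSMUSG00000018569, chromosome 11 from 69964779 to 69967885) encodes a claudin of simple and glandular epithelia. It had 8, 1 and 1 counts in WT replicates 1, 2 and 3 and 5, 3 and 0 counts in TG replicates 1, 2 and 3. With 18 counts in all 6 libraries it did not reach 1 CPM in any library, and a difference between the genotypes was not detectable at this depth.

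The partners of the claudins, *Ocln* and *Tjp1*, had log2 fold changes nearer to 0 than those of *Cldn1*, *Cldn4*, *Cldn8* and *Cldn12*, a difference that was not tested. Without WT replicate 3, *Ocln* was further from 0 than *Cldn1* (-0.33 and -0.30). *Ocln* (ENSMUSG00000021638, chromosome 13 from 100496507 to 100552718) had 43.7, 41.9 and 37.3 CPM in WT and 37.5, 32.2 and 32.1 CPM in TG skin. WT replicate 3 was below TG replicate 1, so the genotypes overlapped. Its log2 fold change was -0.27 ± 0.09 (95% interval -0.49 to -0.05, quasi-likelihood FDR 0.129). *Tjp1* (ENSMUSG00000030516, chromosome 7 from 65296165 to 65527781) had 161, 153 and 158 CPM in WT and 146, 144 and 147 CPM in TG skin. The genotypes did not overlap, yet the log2 fold change was only -0.11 ± 0.05 (95% interval -0.23 to 0.01, quasi-likelihood FDR 0.220). Each TG library lay between -0.13 and -0.10 log2 units from the WT mean, the narrowest spread of the 8 genes. The log2 fold changes were -0.22 for *Ocln* and -0.08 for *Tjp1* without TG replicate 2.

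*Tjp3*, which encodes the scaffold ZO-3, was looked up after its values were seen. It had 24.6, 18.6 and 24.2 CPM in WT and 26.9, 41.5 and 22.5 CPM in TG skin, with overlap between the genotypes and the highest value in TG replicate 2 (log2 fold change 0.44 ± 0.23, quasi-likelihood FDR 0.274). The log2 fold change was 0.16 without that library.

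**Figure D3:**
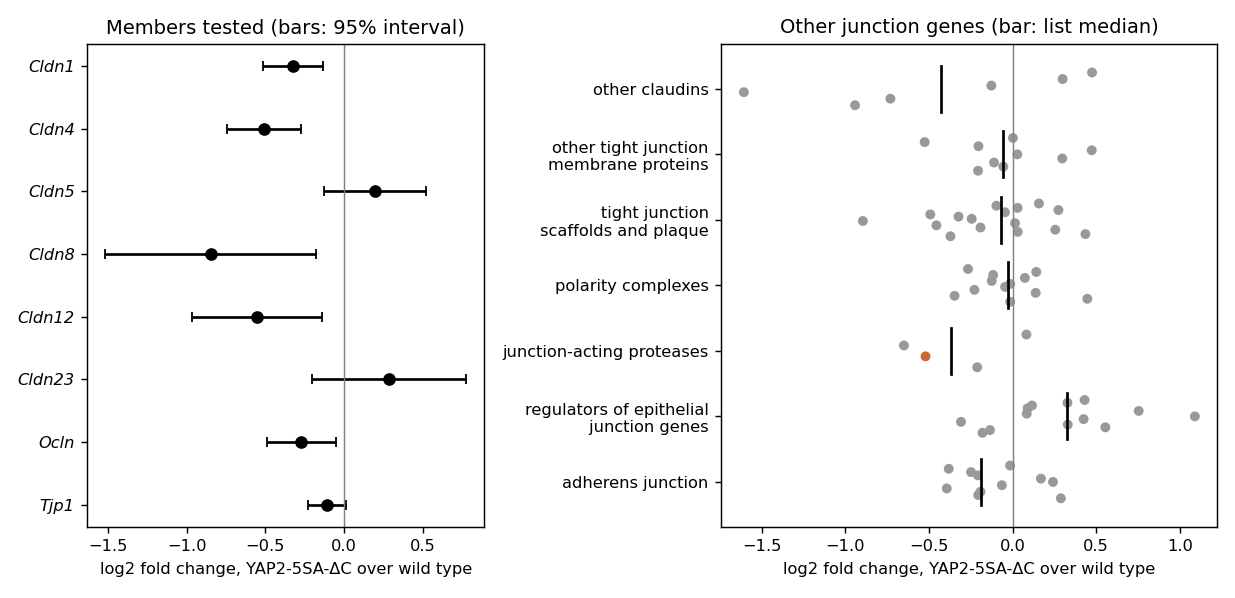
Log2 fold change of TG over WT skin (horizontal axes) for the 8 tested tight junction genes with their 95% intervals (left), and for each tested gene of the other junction lists (right, vertical bars at the list median, orange for an FDR below 0.05). The interval lies below 0 for *Cldn1*, *Cldn4*, *Cldn8*, *Cldn12* and *Ocln* without adjustment for the number of genes, and *St14* is the orange point, at -0.52.

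Per length of exon, *Cldn1* was the most abundant of the genes in both genotypes. In WT skin it had 68.6 ± 1.89 RPKM (CPM per kilobase of exon, SD, n = 3), followed by *Cldn4* with 40.5 ± 3.33 RPKM and *Tjp1* with 20.1 ± 0.520 RPKM, each without overlap with its neighbours in this order. *Cldn8* (10.4 ± 0.468 RPKM), *Cldn12* (10.01 ± 0.360 RPKM) and *Ocln* (9.70 ± 0.783 RPKM) did not differ beyond their spread. *Cldn23* had 5.43 ± 0.133 RPKM, *Cldn5* had 2.88 ± 0.190 RPKM and *Cldn7* at most 0.226 RPKM in any WT library. The first 3 genes kept their order in TG skin, with 54.7 ± 5.25, 28.4 ± 2.98 and 18.6 ± 0.206 RPKM. The means of *Ocln* (8.04 ± 0.736 RPKM), *Cldn12* (6.82 ± 1.68 RPKM), *Cldn23* (6.62 ± 2.04 RPKM) and *Cldn8* (5.79 ± 2.26 RPKM) were closer together there. No TG library had this order. Of these genes, *Cldn23* was the highest in TG replicate 2, at 8.88 RPKM, and *Cldn8* the lowest, at 3.17 RPKM. In TG replicates 1 and 3, *Cldn23* was the lowest, at 6.05 and 4.93 RPKM. Each gene overlapped with the next in the order of the means, although every *Ocln* value was above every *Cldn8* value. *Cldn5* had 3.30 ± 0.359 RPKM in TG skin, a range that included the lowest *Cldn8* value, that of TG replicate 2.

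**Figure D4:**
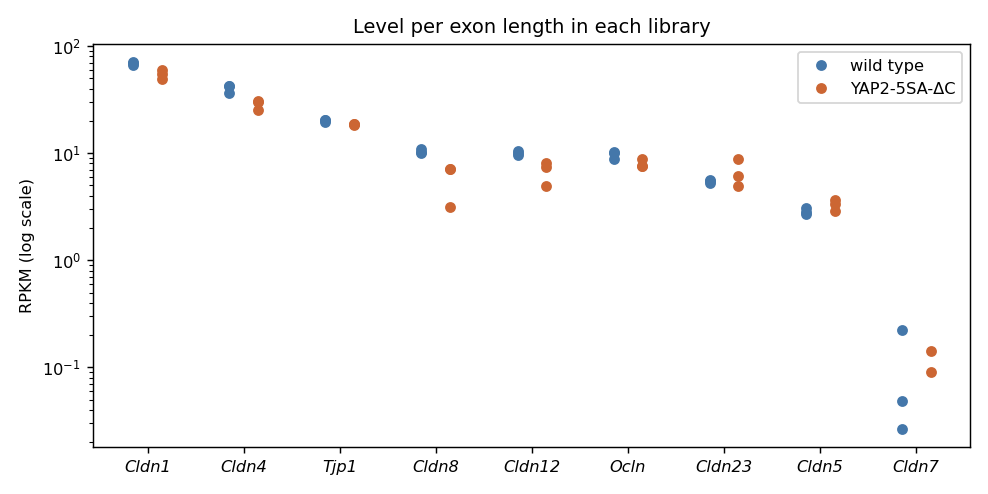
RPKM on a log axis (vertical) of the 9 tight junction genes in each WT (blue) and TG (orange) library, ordered by the WT mean, where the *Cldn7* library with 0 counts cannot be drawn. *Cldn1* is highest at 68.6 RPKM in WT and 54.7 RPKM in TG skin, and *Cldn7* is more than 10 times below every other gene in each library.

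Several of the genes lie beside relatives, and none shares exon sequence with another annotated gene. *Cldn4* is next to *Cldn3* on chromosome 5, *Cldn8* next to *Cldn17* and *Cldn1* next to *Cldn16* on chromosome 16, and *Ocln* next to *Marveld2* (tricellulin, the occludin relative at tricellular contacts) on chromosome 13. *Cldn3* had 4.51, 6.33 and 5.42 CPM in WT and 3.62, 1.47 and 3.37 CPM in TG skin, again without overlap (log2 fold change -0.94 ± 0.32, quasi-likelihood FDR 0.128), and the log2 fold change was -0.62 without TG replicate 2. *Marveld2* had 13.5 ± 1.63 CPM in WT and 11.7 ± 1.82 CPM in TG skin (SD, n = 3 each), with overlap (quasi-likelihood FDR 0.394). *Cldn17* was too scarce to test, with 71 counts over the 6 libraries, and *Cldn16* was not analysed here.

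The wider junction machinery was read from lists of 83 genes, of which 71 were tested. In the quasi-likelihood test, 1 of the 71 passed the FDR threshold, against 1.91% of all genes, and it was lower in TG skin. An unadjusted p-value under 0.05 was reached by 8 genes that were higher and 24 that were lower in TG (over all genes, 26.3% in either direction and 13.0% lower). The gene that passed was *St14*, which encodes matriptase, a membrane protease that acts upstream of prostasin in the epidermal barrier. *St14* fell in TG skin, from a mean of 124 ± 5.63 to 86.4 ± 9.60 CPM (SD, 3 libraries each), with 119, 130.1 and 122 CPM in WT and 91.2, 75.3 and 92.6 CPM in TG skin. The log2 fold change was -0.52 ± 0.09 (quasi-likelihood FDR 0.0451), and it was the 1 of 4 junction-acting proteases and inhibitors to pass. When any 1 library other than TG replicate 2 was left out, 0 of these 4 passed, and the count over all genes was 0 to 142. Without TG replicate 2, 2 of the 4 (*St14* and *Spint1*) passed, both lower, against 2.74% of all genes called lower.

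Of 17 other claudins, 6 were tested and 0 passed. The lowest p-values belonged to *Cldn10*, *Cldn3* and *Cldn14*, whose TG libraries were all below their WT libraries. Over the 6 tested, 3 were lower and 1 was higher in TG without overlap, against 18.2% and 15.5% of all genes. *Cldn34c1*, named after its values were seen, went the other way with nearly the same p-value as *Cldn14*, at 2.09, 1.67 and 1.71 CPM in WT and 2.503, 2.47 and 2.68 CPM in TG skin (log2 fold change 0.48 ± 0.17, quasi-likelihood FDR 0.136). *Cldn10*, a pore-forming claudin, had 10.3, 11.2 and 11.5 CPM in WT and 8.12, 4.06 and 7.68 CPM in TG skin (log2 fold change -0.73 ± 0.25, quasi-likelihood FDR 0.124). *Cldn14* had 2.75, 2.62 and 2.19 CPM in WT and 0.890, 0.118 and 1.498 CPM in TG skin, at a level where few reads carry the difference (log2 fold change -1.61 ± 0.57, quasi-likelihood FDR 0.136). As with *Cldn8* and *Cldn12*, TG replicate 2 had the lowest value of *Cldn3*, *Cldn10* and *Cldn14*, and without it the log2 fold change was -0.46 for *Cldn10* and -1.08 for *Cldn14*, with 0 of the other claudins passing. The median log2 fold change of the 6 tested claudins was -0.43, or -0.22 without TG replicate 2.

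Among 9 other membrane proteins of tight junctions tested, 0 passed, and the median log2 fold change was -0.06, or -0.02 without TG replicate 2. *Cxadr*, an adhesion receptor at tight junctions that also binds coxsackievirus and adenovirus, had 227, 195 and 202 CPM in WT and 260.2, 305 and 302 CPM in TG skin, higher in every TG library (log2 fold change 0.47 ± 0.09, quasi-likelihood FDR 0.0508). It passed without TG replicate 2, at 0.45 (quasi-likelihood FDR 0.0405). *Lsr*, the angulin that recruits tricellulin, had 76.7 ± 1.44 CPM in WT and 66.6 ± 1.49 CPM in TG skin (SD, n = 3 each, FDR 0.0743). *Jam2*, a junctional adhesion molecule found on endothelium, had 14.7 ± 0.536 CPM in WT and 18.01 ± 2.24 CPM in TG skin (SD, n = 3 each, FDR 0.139).

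All 16 scaffold and plaque genes were tested, and 0 passed. The lowest p-values were those of *Magi3*, *Magi1* and *Patj*, which encode scaffolds with several PDZ domains. *Magi3* had 65.9, 73.1 and 75.3 CPM in WT and 45.4, 27.6 and 42.3 CPM in TG skin, all 3 TG libraries being lower (log2 fold change -0.90 ± 0.18, quasi-likelihood FDR 0.0531). Without TG replicate 2, its lowest library, *Magi3* passed at -0.69 (quasi-likelihood FDR 0.0133). The log2 fold changes of *Magi1* and *Patj* were -0.46 ± 0.09 (quasi-likelihood FDR 0.0547) and -0.32 ± 0.07 (quasi-likelihood FDR 0.0618). For the list as a whole, 6 of 16 had an unadjusted p-value under 0.05 and were lower and 1 was higher, against 13.0% lower and 26.3% in either direction over all genes, and the median log2 fold change was -0.07.

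In the polarity complexes, which place tight junctions along the cell side, 0 of 12 genes passed. Lowest in p-value were *Dlg1* (FDR 0.0789), *Prkci* (FDR 0.136) and *Pard6b* (FDR 0.163), all 3 lower in every TG library than in any WT library. Without overlap, 3 of the 12 were lower and 1 was higher in TG, against 18.2% and 15.5% of all genes. Of 11 adherens junction genes, 0 passed and 6 had an unadjusted p-value under 0.05, all lower, against 13.0% lower over all genes. *Afdn*, which encodes the nectin-binding protein afadin, had 436 ± 12.8 CPM in WT and 335 ± 27.5 CPM in TG skin (SD, n = 3 each, quasi-likelihood FDR 0.0531), *Ctnnb1* (β-catenin) had 769 ± 15.9 CPM and 586 ± 63.6 CPM (FDR 0.0634) and *Nectin4* had 146 ± 4.52 CPM and 123 ± 7.43 CPM (FDR 0.0742). *Afdn* passed without TG replicate 2, with a log2 fold change of -0.30 (quasi-likelihood FDR 0.0441).

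Of 13 transcription factors known to act on epithelial junction genes, 0 passed and 10 had a log2 fold change above 0, against 7194 of 15102 genes tested. The median was 0.33, or 0.17 without TG replicate 2. *Zeb2*, a repressor of epithelial genes, had 174, 161 and 171 CPM in WT and 213, 226 and 196 CPM in TG skin (log2 fold change 0.33 ± 0.07, quasi-likelihood FDR 0.0588), and passed without TG replicate 2 at 0.30 (quasi-likelihood FDR 0.0486). Of the Grainyhead-like factors, *Grhl3* had 42.9, 41.9 and 40.2 CPM in WT and 48.1, 81.9 and 53.9 CPM in TG skin (FDR 0.125, log2 fold change 0.56, or 0.31 without TG replicate 2), whereas *Grhl1* had 298 ± 3.47 CPM in WT and 263 ± 10.96 CPM in TG skin (SD, n = 3 each, FDR 0.110). *Zeb2* is expressed in several skin cell types, and the macrophage markers were higher in every TG library for 8 of 8 genes (2 of 8, *Csf1r* and *Mrc1*, passed the threshold, and 3 of 8, with *Lyz2*, without TG replicate 2), with a summed level of 496 to 604 CPM in WT and 722 to 809 CPM in TG skin. Over all genes, 15.5% were higher without overlap and 1.44% were called higher, and 5.46% were called in either direction without TG replicate 2 (2.74% lower). The part of the macrophage markers in the *Zeb2* values was not tested.

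Other cell types of the skin were read from further marker lists. The 8 basal keratinocyte markers summed to 4372 to 5296 CPM in WT and 6930 to 8681 CPM in TG skin (1 of 8, *Krt14*, passed, higher in TG, and 2 of 8, *Krt14* and *Itga6*, without TG replicate 2). Markers of hyperplastic keratinocytes summed to 1228 to 1632 and 1360 to 2574 CPM, a sum in which *Krt17* had 1068 CPM in WT and 692 CPM in TG skin on average (FDR 0.128). Of these 8 genes, 7 had a log2 fold change above 0, against 7194 of 15102 genes tested. The 3 that passed all rose, *Krt6b* by 2.85, *Krt16* by 2.24 and *Sprr1b* by 1.90 on the log2 scale. Without TG replicate 2, 5 of 8 (also *Krt6a* and *Stfa1*) passed, all higher. Over all genes, 1.44% were called higher with all libraries, and 5.46% were called in either direction without TG replicate 2 (2.74% lower). Sebaceous gland markers summed to 3751 to 4456 and 4855 to 7604 CPM (1 of 10, *Plin2*, passed, and 2 of 10, with *Awat2*, without TG replicate 2), and fibroblast markers to 10166 to 13548 and 13000 to 16819 CPM (0 of 8 passed). Skeletal muscle markers ranged from 4025 to 17836 CPM in WT and from 3989 to 9669 CPM in TG skin, and adipocyte markers from 777 to 1040 and 681 to 1106 CPM, with 0 of 8 passed in each. No marker with a row was at 0 in all libraries.

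The genes whose pattern was most like that of each tight junction gene were found by Pearson's r of log2 CPM over the 6 libraries, which contain both genotypes. *Cldn1* was most like *Sesn3*, *Ppp1r26* and *Accs* (r from 0.995 to 0.999), and *Cldn4* most like *Gm10142*, *Rpl4* and *Eif2b5* (r from 0.998 to 0.999). *Cldn12* was most like *Dlx3*, *Bmp8a* and *Zfp618* (r from 0.998 to 0.999), and *Cldn8* most like *Dclk3*, *Lypla2* and *Cdc14a* (each r = 0.998). *Cldn23* was most like *Kctd4*, *Lce1a2* and ENSMUSG00000097227 (r from 0.989 to 0.998), and *Cldn5* like *Pfkfb3*, *Uimc1* and *Ncoa7* (r from 0.976 to 0.984). *Ocln* was most like *Sh3bp4*, *Cyp20a1* and *Phf14* (r from 0.992 to 0.995) and *Tjp1* most like *Nprl2*, *Gen1* and *Plxna1* (r from 0.994 to 0.996). The number of genes with r above 0.95 was 683 for *Cldn12*, 673 for *Cldn8*, 553 for *Cldn4* and 448 for *Cldn1*, and 14 to 107 for the other 4 genes.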

How the data were processed

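The authors deposited unnormalised counts for each Ensembl gene in 6 libraries. Reads had been aligned against GRCm38 using Tophat2 (with Bowtie2), and HTSeq-count assigned those with a unique position to genes. The submitters' notes name TopHat2 2.0.12 and Bowtie2 2.1.0, whereas the paper names an earlier Tophat2 version with the same Bowtie2 version. The annotation release and strand setting are not given in the sources used here. The sample titles say no more of the replicates than a number within each genotype. That 3 separate mice of each genotype were used is the paper's statement.

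Of 26579 genes, 15102 reached 1 CPM in 3 or more samples and were scaled with TMM and tested with glmQLFit and glmQLFTest of edgeR 4.0.16 in R 4.3.3, genotype being the only term, with Benjamini-Hochberg adjustment (FDR, threshold 0.05). The standard error was the log2 fold change divided by the square root of F. Alternatives were other scalings, count filters, edgeR's likelihood-ratio test, voom (limma 3.58.1), DESeq2 1.42.0, a term for the replicate number and the omission of single libraries. RPKM used the union of exons in GENCODE M21, in which 558 identifiers are absent. The statistical scripts were tested on simulated data. The tight junction genes and gene lists were chosen with earlier results of these data known. From each junction list, the text names the genes past the threshold or otherwise the 3 with the lowest p-value. Exceptions and marker genes were named after their values were seen. The promoter motifs were chosen after the values were seen.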

Additional observations from a re-analysis of the deposited data

How the results depend on the processing

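The direction of all 8 tested tight junction genes was the same in all 15 alternatives. The number past an FDR of 0.05 was 0 with upper-quartile or RLE scaling, without a low-count filter, with at least 10 counts in every sample, voom and the older quasi-likelihood form. The likelihood-ratio test of edgeR called 3, with a background of 10.4% of genes called, and DESeq2 called 4, with 10.5%. The likelihood-ratio values were -0.51 for *Cldn4* (FDR 0.0147), -0.85 for *Cldn8* (FDR 0.0130) and -0.55 for *Cldn12* (FDR 0.0428). Those of DESeq2 were -0.32 for *Cldn1* (FDR 0.0116), -0.50 for *Cldn4* (FDR 0.00130), -0.84 for *Cldn8* (FDR 0.0193) and -0.54 for *Cldn12* (FDR 0.0291). The cause was not tested.

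With each library left out in turn, between 0 and 3 of the 8 passed, and the log2 fold change was between -0.57 and -0.41 for *Cldn4*, -1.02 and -0.54 for *Cldn8*, -0.69 and -0.35 for *Cldn12* and -0.38 and -0.24 for *Cldn1*. All 3 calls came without TG replicate 2. The count over all genes was 0 to 817, and 0 without WT replicate 2, WT replicate 3 or TG replicate 3, although unadjusted p-values under 0.05 numbered 2726, 2844 and 3691. It was 142 without WT replicate 1 and 83 without TG replicate 1. It came to 497 with no low-count filter, 1568 with the likelihood-ratio test and 1590 with DESeq2.

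With the replicate number as a block, edgeR's quasi-likelihood test called 0 genes, and 0 of the junction-acting proteases, while 2949 genes had an unadjusted p-value under 0.05. Deviations of same-numbered libraries from their genotype means correlated at -0.33, -0.23 and -0.05. With 3 libraries per genotype, such correlations cannot show whether the numbers pair the mice.

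Of the other lists, the tight junction membrane proteins had 1 call with upper-quartile or RLE scaling, without a low-count filter, and with the likelihood-ratio test or DESeq2, and 0 to 1 with a library left out. Over all genes, 2.75% were called with upper-quartile scaling, 2.36% with RLE scaling and 1.87% without a low-count filter. The likelihood-ratio test called 10.4% and DESeq2 10.5%. The other claudins had 3 calls with the likelihood-ratio test. The scaffolds had 1 with no low-count filter, 2 with the likelihood-ratio test and 4 with DESeq2, and 0 to 1 with a library left out. The proteases had 2 with either of these tests, and 0 to 2 with a library left out. The transcription factors had 1 with upper-quartile factors or the likelihood-ratio test and 2 with DESeq2, and 0 to 1 with a library left out. The adherens junction genes had 3 with DESeq2, and 0 to 1 with a library left out. Depth limited *Cldn7*, with 18 counts in all.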
